A study of Drosophila melanogaster with 23 samples.

Results

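Sites of the zinc finger protein Mzfp1 in adult flies were set against those in embryos of the same untagged strain, y1w1118. The adult list, made with anti-Mzfp1 antibodies, held 1666 regions on the assembled chromosomes, and the embryo set held 808 sites, obtained by merging a list from antibodies raised in rat (784 regions) with one from antibodies raised in rabbit (110 regions). A region and a site were called shared when they had at least 1 bp in common. This gave 1022 adult-only regions, 132 embryo-only sites and a shared class of 644 adult regions and 676 embryo sites, so 2474 of the 26996 regions in the 10 peak lists of the series were used here. The adult list came from 2 paired-end chromatin immunoprecipitation (ChIP-seq) libraries of whole flies aged 2 to 3 days, precipitated with the rat antibodies. Each embryo list came from 1 single-end library of whole embryos. The study gives the collection window of the embryos in more than one way, and the preparation described in the sample labels of the embryos is that of adult flies, so no age is printed for them. The sex of the flies is not stated. Since a peak list holds no expression values, the stage named by a label could not be checked against marker genes. No transgene or tag was present in these flies, so any Mzfp1 that the antibodies met was the endogenous protein. Whether the antibodies also met other proteins cannot be read from the lists.

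Mzfp1, the product of CG1603, carries a cluster of C2H2 zinc fingers, which bind DNA, and 2 MADF domains, a domain type found in many insect DNA-binding proteins. Proteins of this kind are known at promoters of housekeeping genes, which most cells use, and at boundaries, elements that separate neighbouring regulatory domains. Architectural partners at such sites include CP190, which zinc finger proteins recruit to DNA. Divergent promoters are pairs of promoters that fire in opposite directions from one stretch of DNA, and they are common in the compact genome of Drosophila.

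In each class only a minority of sites had a match near the summit to the sequence matrix used here. These were 293 of 1022 adult-only regions, 198 of 644 shared adult regions and 10 of 130 embryo-only sites. Sites with a match thus do not stand for the rest of their class. With its own motif and limit, the study counts more adult peaks with the motif than without. The shares given here therefore hold for this matrix and its limit alone. A 15 bp matrix was trained on another adult list (flies with an HA-tagged full-length protein, precipitated with the same rat antibodies), which held 80.7% of the y1w1118 adult regions. Regions on one set of chromosomes were scored by a matrix from the others. Each matrix started from the word whose share in the training regions most exceeded that in flanking windows. These seed words were TATCGATA and ATCGATAG. The matches below lie within 100 bp of a summit. Capitals mark the 15 bp match and lower case the 5 bases on either side, read 5′ to 3′ on the strand given, in dm6 coordinates. The first set holds shared regions and was chosen, after the values were seen, among the strongest adult regions with a match.
Pc (chr3L:21318017-21318041, minus strand): cgcagCACTATCGATTGTTTacatg
Phf7 (chrX:20165924-20165948, plus strand): ggacgATACATCGATAGATTcgaga
eEF1delta (chr2L:10232468-10232492, minus strand): gcaggTATATCGATATCTACgccat
vtd (chr3L:27136518-27136542, plus strand): ttaaaTGATATCGATAATTTgataa
The second set, chosen in the same way, holds adult-only regions.
Spt20 (chr3L:13502694-13502718, plus strand): gcgaaCGATAACGATTGTTGgcatt
Cat (chr3L:18828529-18828553, minus strand): ctcgaATTAATCGATAACTCgccct
RpS7 (chr3R:30209011-30209035, minus strand): tgcaaCTGTATCGATAGTATcgcac
Tudor-SN (chr3L:264405-264429, plus strand): cgcgaTAGCATCGATATTTTcgtga
The last set holds embryo-only sites of high embryo fold enrichment with a match.
Agpat1 (chrX:12765207-12765231, plus strand): aaaatAGACATCGATGTTTCggaaa
CG44774 (chrX:4936207-4936231, plus strand): atgccAAACATCGATATTTTcaaaa
FucT6 (chrX:11709950-11709974, plus strand): tgcatAGACATCGATACATCtgccc
lncRNA:CR45159 (chr3L:24231551-24231575, plus strand): cctgaTCCTATCGATAGTTTcctgc
The core ATCGAT stood in all of these matches except that of Spt20, and since the matches were picked with the matrix, their likeness comes from the choice. The study's gel shift probe, which repeats 1 genomic site 4 times, carries TCGATA, which overlaps this core and is in capitals below.
Probe unit (chr2L:10386634-10386663, plus strand): ctaagctctttgTCGATAtcttgacacacc
This site of the probe lies in a shared region at the starts of Cdk1, the mitotic kinase, and mRpS7, a mitochondrial ribosomal protein. The region had a fold enrichment of 60.1 in adults, 8.47 in rat embryos and 5.45 in rabbit embryos. The position of the adult summit minus that of the site's centre is −364 bp, beyond the 100 bp used for matches. These values are thus those of the region and not of the probe site.

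Most embryo sites were also adult regions, whereas the adult list held many regions without an embryo counterpart. In adults, 676 of the 808 embryo sites were found (83.7%, Wilson 95% interval 81.0 to 86.1%). In embryos, 644 of the 1666 adult regions were found (38.7%, interval 36.3 to 41.0%). With 50% reciprocal overlap in place of 1 bp, 41.7% of embryo sites and 20.2% of adult regions were shared. The embryo set rests mainly on the rat library. With the rabbit list alone as the embryo set, 5.58% of adult regions were found in embryos and 87.3% of its 110 sites were adult regions. The adult libraries are in 1 list and the embryo lists differ in antibody, so no spread between replicates can be given, and all intervals cover counting error over regions, which are not replicates of a stage. The adult regions came through a different caller setting and from paired-end reads, so stage and processing cannot be told apart in any count below.

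The shared pairs were overlaps of whole peaks rather than of their edges. In 542 of the 676 pairs (80.2%) the embryo site lay wholly inside the adult region, and the summits, the positions of highest signal, were a median of 28 bp apart, with 87.7% of pairs within 100 bp. The smallest overlap of a shared pair was 30 bp and the next 111 bp. On the other side of the rule, the nearest adult-only regions ended 155 and 160 bp from an embryo site, and the nearest embryo-only sites 93 and 127 bp from an adult region. Few regions were thus close to the limit between the classes. In 32 cases, 1 adult region held 2 embryo sites.

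Strength and width separated the classes in both stages. Fold enrichment is the signal value of the authors' peak caller, ChIP over control at the summit. Its median was 2.99 in adult-only regions (lowest 1.67, highest 35.4), against 5.87 in shared adult regions (1.78 to 256). Embryo-only sites had a median of 2.64 (1.67 to 8.68), against 3.94 in shared embryo sites (1.86 to 28.1). The lower ends of the classes were close to each other, and values above the highest adult-only one, 35.4, stood in the shared class alone. Widths had medians of 436 bp in adult-only and 613 bp in shared adult regions, and of 251.5 bp in embryo-only and 304 bp in shared embryo sites.

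Whether an adult region was found in embryos followed its strength through the whole range. With the adult list in 10 equal bins of fold enrichment, the weakest bin (median 2.07) had 13 of 166 regions found in embryos (7.83%, interval 4.63 to 12.9%). In the strongest bin (median 31.6), 151 of 167 were found (90.4%, interval 85.0 to 94.0%). The share was 29.5% in the sixth bin and 50.3% in the seventh. Width went the same way, with 18.6% of the narrowest and 60.2% of the widest of 5 bins found in embryos, and a wider region also has more room to meet the 1 bp rule. Of the rat embryo sites, in 5 bins, 55.8% of the weakest and 99.4% of the strongest bin were found in adults.

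**Figure D1:**
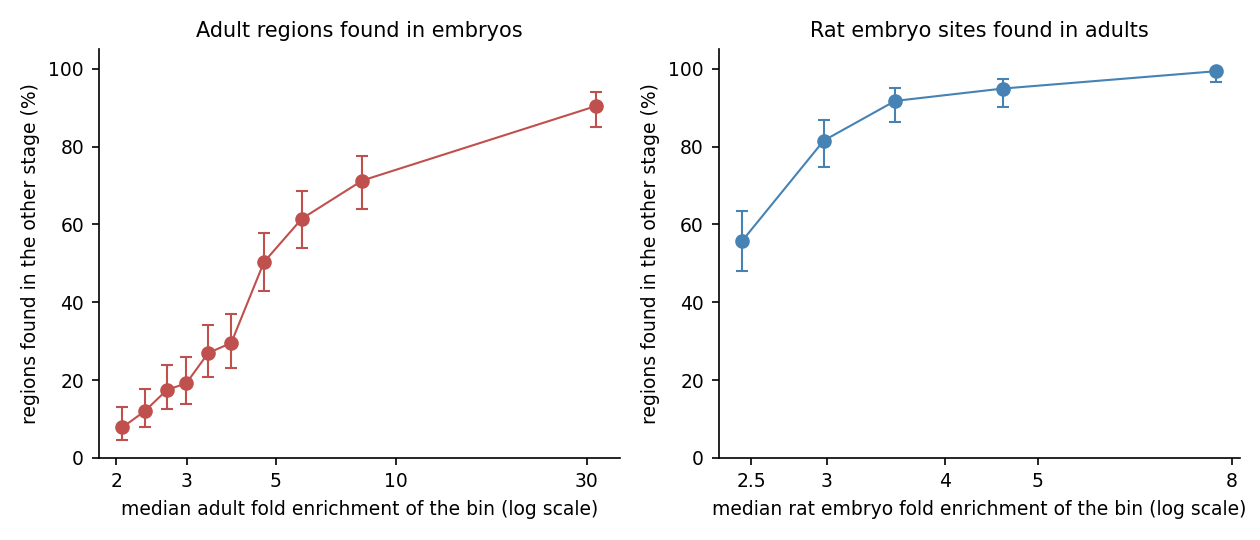
Share of adult regions found in embryos (left, 10 bins of the adult list) and of rat embryo sites found in adults (right, 5 bins) against the median fold enrichment of each bin on a log axis; bars are Wilson 95% intervals. The share of adult regions runs between 7.83% and 90.4% and that of rat embryo sites between 55.8% and 99.4%.

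The strongest shared regions were listed with every antibody. A region is named here by the gene whose start is nearest to its summit. At RNASEK, which encodes ribonuclease kappa, fold enrichment was 256 in adults, 17.0 in rat embryos and 20.8 in rabbit embryos. At Hr39, a nuclear receptor gene, it was 230 in adults, 12.8 in rat embryos and 8.49 in rabbit embryos. At Pc, the chromodomain subunit of the Polycomb complex PRC1, it was 183 in adults, 16.0 in rat embryos and 9.44 in rabbit embryos. CG1677 and anne, on the X chromosome and chromosome 4, had 211 and 181 in adults, 15.6 and 14.2 in rat embryos, and 11.0 and 9.14 in rabbit embryos. Maf1, a repressor of RNA polymerase III, had 174 in adults, 13.0 in rat embryos and 9.33 in rabbit embryos. SmD1, a core protein of the spliceosome, had 167 in adults, 13.0 in rat embryos and 16.0 in rabbit embryos, and RpL5, a protein of the large ribosomal subunit, had 160 in adults, 15.3 in rat embryos and 6.19 in rabbit embryos. All of these regions had their summit in a promoter, between 102 bp upstream and 3 bp downstream of the nearest start. Starts on both strands lay within 200 bp of 6 of the 8 regions, which were thus classed as divergent. These 6 regions were 1224 to 3321 bp wide. RNASEK, Maf1 and RpL5 lie in the heterochromatic part of their arms. Of the 8, only Pc had a matrix match, beside 82 of 325 shared regions (25.2%) in the strongest of 4 equal bins of adult fold enrichment.

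The strongest adult-only regions were weaker than these, and 4 of the 8 had their summit in a promoter. CG32264 led with a fold enrichment of 35.4 in adults (chr3L:3789104-3789996), with its summit in an intron 1382 bp upstream of the nearest annotated start. Vps11, a subunit of vesicle tethering complexes, followed with 28.1 in adults, in heterochromatin and with its summit 17 bp into the gene. CG12379 had 26.6 in adults, RpL37-1 had 24.0 with its summit 1928 bp from the start, and CG9171 had 18.7 with its summit 1134 bp from the start. At the mitochondrial cytochrome P450 gene Cyp12c1 the value was 20.4 in adults, at Utx, which encodes a demethylase of histone H3 lysine 27, it was 17.2, and at CG15812, whose start faces that of the complex I subunit ND-30, it was 16.4. None of these 8 regions had a matrix match, and all of them were also listed in adults with the full-length HA-tagged protein and anti-Mzfp1. Both traits were general among strong adult-only regions. In the strongest of 4 equal bins of adult fold enrichment, 7 of 92 adult-only regions had a match (7.61%) and all 92 were in that list. In the strongest of the 10 bins of the adult list, 16 regions were adult-only.

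The 8 strongest embryo-only sites were mostly away from promoters. None was listed in the flies with the tagged full-length protein and anti-Mzfp1, where 25.8% of all embryo-only sites were found. An intron of CR40182, in the heterochromatin of 3R, had a fold enrichment of 4.93 in rat and 8.68 in rabbit embryos (chr3R:2111009-2111302). An intron of sdt, which encodes a scaffold of the Crumbs polarity complex, had 7.53 in rat embryos, and CR45948 on the Y chromosome had 6.85 in rabbit embryos. CG13323, mip120 (a subunit of the dREAM complex) and tomb (a gene of spermatocyte transcription) had 6.63, 5.24 and 5.13 in rabbit embryos. The tRNA gene tRNA:Asn-GTT-1-1 and CG9380 were nearest to sites with 5.11 and 4.97 in rat embryos. Only the site of mip120 had its summit in a promoter. The sites of sdt, CG13323 and mip120 were each in at least 1 other list of transgenic adults.

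Embryo sites listed with both antibodies were adult regions more often than those listed with 1 of them alone. Of the 86 embryo sites listed with both antibodies, 84 were adult regions (97.7%), of the 698 listed with the rat antibodies alone 580 (83.1%), and of the 24 listed with the rabbit antibodies alone 12 (50.0%). Both steps between these shares exceeded counting error (14.6 percentage points, interval 8.26 to 18.0, and 33.1 percentage points, interval 14.3 to 51.9). These sets also differed in strength, with median embryo fold enrichments of 9.93 for both, 3.37 for rat alone and 4.98 for rabbit alone. Taken as whole lists, 84.7% of the rat and 87.3% of the rabbit sites were adult regions. Both lists hold the 86 sites listed with both antibodies, so these 2 shares do not compare the species. The adult list itself was made with the rat antibodies. The strongest sites listed with rabbit antibodies alone were mle, the helicase of the dosage compensation complex, with 10.8, and Gnf1, the large subunit of replication factor C, with 7.77. Both were adult regions, with 28.5 and 8.12 in adults. The 2 next were the embryo-only sites at CR45948 and CG13323, and Uba1, the ubiquitin-activating enzyme, had 6.17 in rabbit embryos beside 2.65 in adults. At mod(mdg4), an insulator gene whose transcripts are joined by trans-splicing, 4 embryo-only sites stood within the locus (chr3R:21373423-21377933), with fold enrichments of 4.21 to 4.54 in rabbit embryos, and 1 of them was also listed in rat embryos with 2.53. The others are among the 24 sites listed with the rabbit antibodies alone, and the interval above counts such neighbouring sites as separate. The mod(mdg4) sites were chosen after their values were seen.

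Within the shared class the order of the sites was partly kept between the stages. Adult and rat embryo fold enrichment had a Spearman coefficient of 0.604 over 636 shared regions, and adult and rabbit embryo values one of 0.650 over 93. Between the 2 embryo lists it was 0.572 over 86 sites. These describe regions of the same genome and share the rat antibodies in the first case, and regions are not independent. The adult value was a median of 1.58 times the rat embryo value (0.335 to 18.0), a ratio between lists with different controls and read types, and only its spread between regions is used below.

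Regions at the ends of this spread were named by the gap between their ranks. Towards the adult side, mle had 28.5 in adults and 1.94 in rat embryos, CCT2, a chaperonin subunit, 17.4 in adults and 2.47 in rat embryos, and CG2811 13.1 in adults and 2.61 in rat embryos. Rpn7, of the proteasome lid, had 23.7 in adults, 2.80 in rat embryos and 6.17 in rabbit embryos. The adult region of mle is wide and holds 2 embryo sites. The rat value is that of a site in a coding exon whose summit lies 443 bp from the adult summit, and the rabbit value of 10.8 is that of a site whose summit lies 4 bp from it, so the rat and adult values of mle belong to different summits. Towards the embryo side, N, the Notch receptor, had 2.78 in adults and 7.44 in rat embryos, ec, a gene of cell death in the pupal eye, 2.17 in adults and 5.37 in rat embryos, and hep, a kinase of the JNK pathway, 3.18 in adults and 5.92 in rat embryos. These 3 genes lie on the X chromosome. The intergenic site nearest to spok, a gene of ecdysone synthesis, had 3.68 in adults, 11.0 in rat embryos and 6.23 in rabbit embryos and lies 51526 bp from that start, in the heterochromatin of 3R. A match stood under the summits of Rpn7 and hep, at opposite ends of the spread.
Rpn7 (chr3R:22462035-22462059, minus strand): gtataATTTATCGATAATTTtgggg
hep (chrX:13090426-13090450, plus strand): gcatcAGCCATCGATGGTTCttcgc

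**Figure D2:**
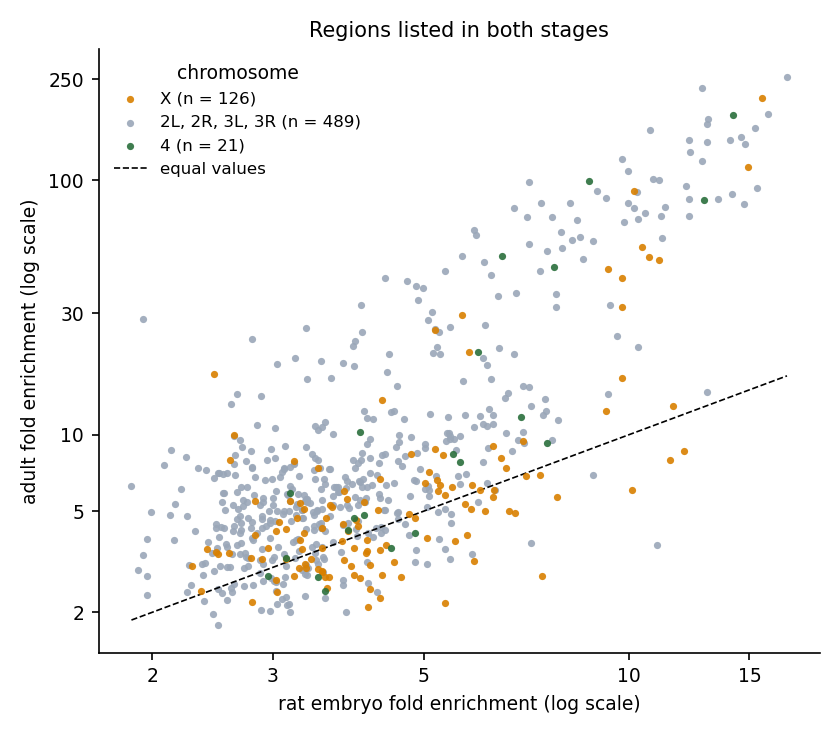
Adult against rat embryo fold enrichment of the 636 shared regions with a rat region, both on log axes; each point is 1 region, coloured by chromosome, and the dashed line marks equal values. Regions on X lie closer to the line (median ratio 1.12) than those on the large autosome arms (median ratio 1.74).

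With the rat antibodies, the X chromosome stood apart from the large autosome arms, and with the rabbit antibodies no difference beyond counting error was seen. Of 243 adult regions on X, 126 were found in embryos (51.9%, interval 45.6 to 58.1%), against 497 of 1390 on 2L, 2R, 3L and 3R (35.8%, interval 33.3 to 38.3%), a difference of 16.1 percentage points (Newcombe interval 9.33 to 22.8). With the rabbit list alone, 11 of the 243 regions on X were found (4.53%), against 77 of the 1390 on the arms (5.54%), and the difference was −1.01 percentage points (interval −3.40 to 2.55). X held 14.6% of the adult regions, 19.9% of the rat embryo regions (interval 17.2 to 22.8%) and 10.9% of the rabbit embryo regions (interval 6.35 to 18.1%). The X values below are thus those of 1 rat embryo library, and whether they belong to the stage or to this library cannot be told apart. Each of the 4 autosome arms was below X, with 35.7% on 2L, 36.8% on 2R, 32.2% on 3L and 37.7% on 3R. The adult regions on X were not stronger, with a median fold enrichment of 3.41 against 3.64 on the large arms, and they were narrower, with 364 bp against 522.5 bp. With the adult list in 4 equal bins of fold enrichment, 17.0% of the regions on X and 10.1% of those on the arms were found in embryos in the weakest bin, with an interval of the difference that includes 0 (−1.95 to 20.3). In the second bin the shares were 41.4% on X and 16.5% on the arms, in the third 63.3% and 39.8%, and in the strongest 89.8% and 75.6%, with intervals of the difference that leave out 0 in these 3 bins.

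**Figure D3:**
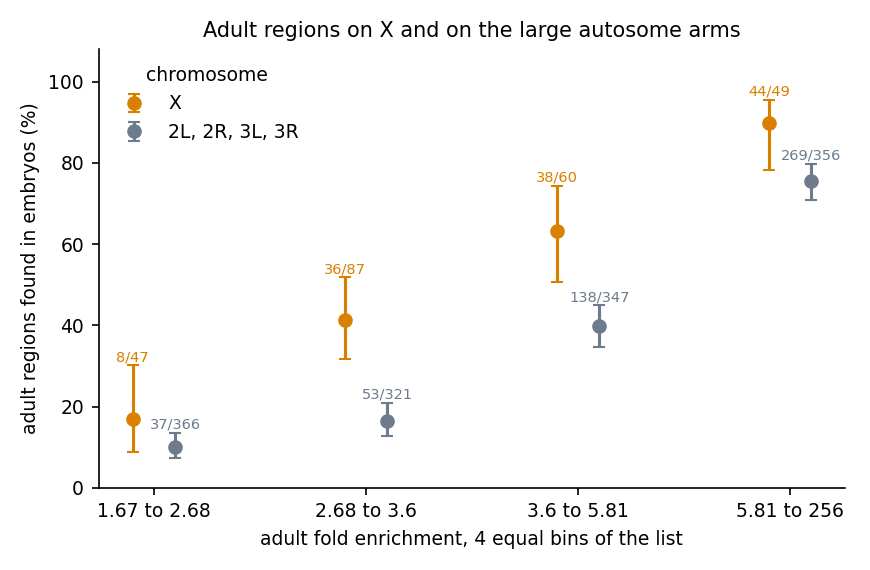
Share of adult regions found in embryos on X and on the 4 large autosome arms, in 4 equal bins of adult fold enrichment; bars are Wilson 95% intervals and the numbers give found over all regions. X lies above the arms in each bin, with 41.4% against 16.5% in the second.

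The values of the shared regions differed between X and the arms in the same way. The adult over rat embryo ratio had a median of 1.12 on X (95% interval 1.01 to 1.21, n = 126) and of 1.74 on the large arms (1.64 to 1.81, n = 489). The adult value was below the rat embryo value in 51 of 126 shared regions on X (40.5%), against 71 of 489 on the arms (14.5%), a difference of 26.0 percentage points (interval 17.1 to 35.1). The ratio on X was lower than on the arms in each of 4 bins of rat embryo fold enrichment, with 1.36, 1.12, 0.962 and 1.09 on X and 1.67, 1.53, 1.63 and 5.50 on the arms, weakest bin first. In 2 other comparisons of X with the arms the interval of the difference included 0. Embryo sites on X were found in adults at 82.8%, against 84.0% on the arms (difference −1.17 percentage points, interval −8.35 to 4.79), and adult regions on X were found in the flies with the tagged full-length protein at 77.0%, against 81.0% (difference −4.05, interval −10.1 to 1.25).

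Other chromosomal positions gave smaller sets. On chromosome 4, a small and largely heterochromatic chromosome, 21 of 33 adult regions were found in embryos (63.6%), 27.9 percentage points more than on the large arms (interval 10.7 to 42.3). In the heterochromatin of 5 arms 48 of 83 adult regions were found (57.8%), against 37.1% in their euchromatin (difference 20.7 points, interval 9.72 to 31.1). The heterochromatic regions were also stronger, with a median of 8.11 against 3.54. Within the strongest of 4 bins of adult fold enrichment 72.5% of heterochromatic and 78.0% of euchromatic regions were found, and in none of these bins did the interval of the difference leave out 0. The other bins held only 4, 15 and 13 heterochromatic regions, weakest first, so their intervals are wide. In the third bin the difference was 18.9 points (interval −7.58 to 40.2). Whether strength accounts for the heterochromatin difference was not tested. On the Y chromosome there were 0 adult regions and 2 embryo-only sites.

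Promoters held most regions of each class, and fewest of the embryo-only class. A promoter was taken as the 200 bp before and after each transcription start. It was met by 84.2% of adult-only and 91.5% of shared adult regions (difference −7.21 percentage points, interval −10.3 to −4.01), and by 56.8% of embryo-only and 88.9% of shared embryo sites (difference −32.1, interval −40.9 to −23.5). The first of these differences was −3.23 with 50% reciprocal overlap and −2.34 with the rabbit list alone, and both intervals included 0. A region was counted as divergent when starts on both strands lay within 200 bp of it, whatever their spacing or order. A wide region meets this more easily. The embryo-only sites were also rarely divergent, with 9.09% against 24.4% of shared embryo sites (difference −15.3, interval −20.4 to −8.46). This difference was −18.2 with the starts on both strands near the summit, and −3.14 with 50% reciprocal overlap, where its interval included 0, as it did with the rabbit list alone (−14.6). For adult-only and shared adult regions the divergent shares were 34.1% and 37.9%, with an interval of the difference from −8.59 to 0.873. This last difference turned positive, at 5.42 points, when the starts on both strands had to lie near the summit instead of near the region, and also, at 11.4 points, with 50% reciprocal overlap, and it is given without a direction.

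Summits of the embryo-only class fell more often inside genes than those of shared embryo sites, and also more often between genes. Coding exons held 13.6% of the embryo-only summits and 1.18% of the shared embryo summits (difference 12.5 percentage points, interval 7.49 to 19.4), against 1.57% of adult-only and 1.55% of shared adult summits. Introns held 14.4% of embryo-only and 4.88% of shared embryo summits, and 8.22% of adult-only and 4.66% of shared adult summits. Intergenic stretches held 15.9% of embryo-only and 5.62% of shared embryo summits (difference 10.3, interval 4.66 to 17.6). In adults they held 8.81% of adult-only and 5.435% of shared summits. A summit lay more than 1000 bp from any start in 31.1% of embryo-only and 6.07% of shared embryo sites, and in 10.8% of adult-only and 6.06% of shared adult regions. Relative to the nearest start, the median summit was 32.5 bp upstream in adult-only and 42 bp upstream in shared adult regions, and 51.5 bp downstream in embryo-only and 23 bp upstream in shared embryo sites. Among the rat embryo sites the promoter share of the embryo-only class was below that of the shared class in each of 3 equal bins of rat fold enrichment, with 65.2% against 91.3% in the weakest bin. Only 5 embryo-only sites were in the strongest bin.

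**Figure D4:**
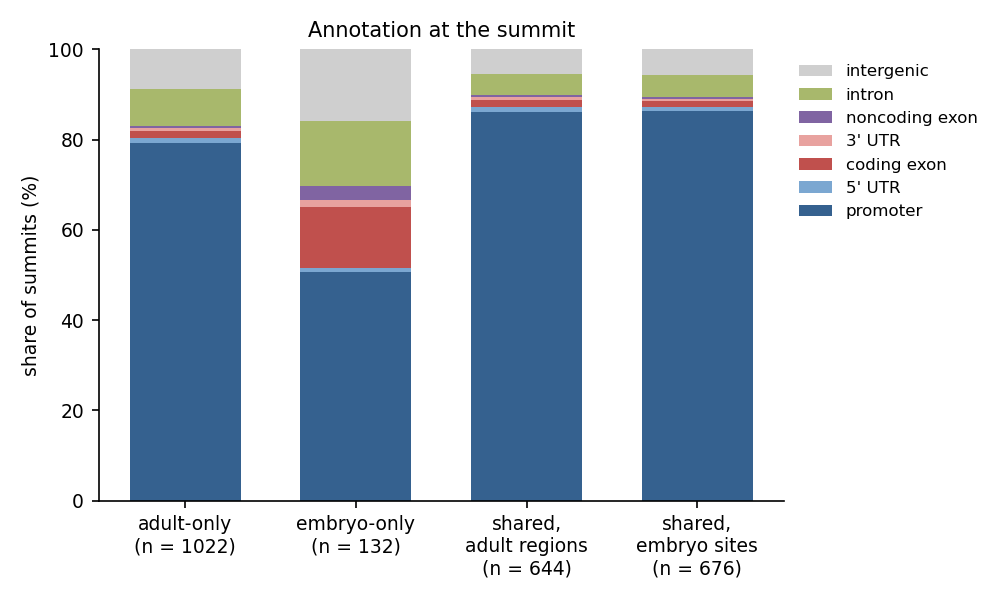
Annotation at the summit for the 4 sets, in percent of summits; each bar adds up to all regions of its set (n under the bar). The promoter share is 79.3% in adult-only and 50.8% in embryo-only summits, against 86.2% and 86.4% in the shared sets, and the coding exon share is 13.6% in embryo-only summits.

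The match to the matrix followed the classes in embryos but not over the adult list as a whole. A match, scored against a limit passed by 1% of flanking windows, stood within 100 bp of the summit in 28.7% of adult-only and 30.7% of shared adult regions (difference −2.08 percentage points, interval −6.62 to 2.39, but 17.6 with the rabbit list alone). Among embryo sites it stood in 7.69% of 130 embryo-only and 27.7% of shared sites (difference −20.0, interval −24.9 to −13.2, but −9.38 with the rabbit list alone, interval −16.9 to 15.3). Flanking windows 1000 bp away held a match in 1.15 to 1.33% of cases in the 4 sets. Within 4 bins of adult strength the adult list divided. In the weakest bin 5.26% of regions with a match and 13.8% of those without were found in embryos (difference −8.52, interval −13.8 to −2.23). The difference was 8.92 points in the second bin, 13.8 in the third and 18.0 in the strongest, where 82 of 89 regions with a match and 243 of 328 without were found (intervals 0.361 to 18.1, 3.61 to 23.7 and 9.34 to 24.5).

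Short words under the summits were counted on both strands within 100 bp, beside all 19276 promoter windows of the same length. TATCGATA, the DNA replication-related element bound by DREF and BEAF-32, overlaps the core of the matrix. It stood in 22.9% of adult-only, 2.27% of embryo-only, 18.9% of shared adult and 17.5% of shared embryo summits, against 6.44% of all promoters. GAGAGAG, a repeat bound by GAGA factor, stood in 10.6% of embryo-only and 1.33% of shared embryo summits (difference 9.27 percentage points, interval 4.93 to 15.7, but −1.04 with the rabbit list alone, interval −5.67 to 20.5), in 2.15% of adult-only and 1.24% of shared adult summits, and in 4.68% of all promoters. The TATA word TATAAA stood in 23.7% of adult-only and 17.1% of shared adult summits (difference 6.60, interval 2.61 to 10.4), in 4.55% of embryo-only and 14.2% of shared embryo summits, and in 26.9% of all promoters. GGTCACAC, the core of the motif bound by M1BP, stood in 7.24% of adult-only, 8.33% of embryo-only, 9.32% of shared adult and 9.47% of shared embryo summits (5.68% of all promoters), and the intervals of both differences include 0. The E-box CAGCTG stood in 15.2% of adult-only and 11.2% of shared adult summits (difference 3.99, interval 0.611 to 7.20), and in 13.4% of all promoters. CAGGTAG, bound by the early embryonic activator Zelda, stood in 0 of 132 embryo-only and 0.888% of shared embryo summits, and in 1.08% of all promoters.

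Lists of genes with general cell functions held larger shares of bound genes than all annotated genes did, and lists of patterning and adult tissue genes smaller ones. Of 18277 annotated genes, 11.8% had an adult region within 200 bp of a start (2162 genes), 4.81% an embryo site (880 genes) and 790 both, which is 36.5% of the adult and 89.8% of the embryo genes. By class, 6.98% had an adult-only region, 0.492% an embryo-only site and 4.89% a shared region. Of all adult-bound genes 41.3% had a shared region. The shares of the lists below are read against these values, and no test was run on a list.

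Genes of cytoplasmic ribosomal proteins were bound most often. Of 86, 53 had an adult region (61.6%) and 32 an embryo site, with 23 at adult-only regions, 2 at embryo-only sites and 30 at shared regions. RpL5 and RpL23A led, with fold enrichments of 160 and 157 in adults, 15.3 and 10.7 in rat embryos, and 6.19 and 10.5 in rabbit embryos. RpL15 had 95.2 in adults and 12.1 in rat embryos, and RpS27A had 78.7 in adults, 11.3 in rat embryos and 7.72 in rabbit embryos. The embryo-only members were sta, with 2.41 in rat embryos, and RpL7A, with 4.57 in rabbit embryos. Of 73 mitochondrial ribosomal protein genes 25 had an adult region and 10 an embryo site, with mRpS7 (60.1 in adults, 8.47 in rat embryos) and mRpS30 (48.7 in adults, 11.1 in rat embryos) the strongest. Of 87 genes of oxidative phosphorylation 21 had an adult region and 9 an embryo site, and of 33 tRNA synthetase genes 8 and 3, led by GluProRS with 23.3 in adults and 3.96 in rat embryos. Of 32 proteasome genes 13 had an adult region and 6 an embryo site, led by Prosalpha6, a subunit of the catalytic core, with 93.1 in adults, 15.4 in rat embryos and 16.3 in rabbit embryos.

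In a list of 30 DNA replication genes, 9 genes had an adult-only region and 0 a shared region or embryo site. The strongest were Sld5 and Psf1, of the GINS complex at the replication fork, with 4.69 and 4.16 in adults, PolA1, the catalytic subunit of DNA polymerase alpha, with 4.42, and Mcm5, of the replicative helicase, with 3.62. The list is not complete. RfC3, a subunit of replication factor C that is not in it and was chosen after its values were seen, had a shared region with its embryo summit 20 bp from the start, with 41.3 in adults and 4.39 in rat embryos. Gnf1, also outside the list, is the gene nearest to a shared region, whose embryo summit lies 608 bp from the start.

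Regulators of chromatin were found in both classes. Of 35 Polycomb and Trithorax group genes, 14 had an adult region and 6 an embryo site, with 8 at shared and 6 at adult-only regions. Besides Pc and Utx, the strongest were osa, a subunit of a SWI/SNF complex, with 12.4 in adults and 7.54 in rat embryos, and Asx, with 9.87 in adults and 5.65 in rat embryos. Of 22 genes of architectural and insulator proteins, 10 had an adult region and 4 an embryo site. The cohesin gene vtd had 56.3 in adults, 7.12 in rat embryos and 4.59 in rabbit embryos, and pzg, whose product Z4 acts with Chromator, had 35.0 in adults and 6.43 in rat embryos. M1BP, the motif 1 binding protein, had 7.20 in adults as an adult-only region, and BEAF-32 had 4.95 in adults and 3.44 in rat embryos. Of 47 genes of embryonic patterning 1 had a region (2.13%), Sxl, with 3.55 in adults and 3.32 in rat embryos. Of 60 genes of adult tissues 1 had a region (1.67%), norpA, the phospholipase C of phototransduction, with 5.08 in adults and 5.87 in rat embryos, at a region shared with mRpL33.

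Presence in the lists of transgenic adults was read for each class. These flies carry an HA-tagged transgene that is full-length (wt-HA) or lacks the second MADF domain (ΔM2-HA), the stretch that binds CP190 (Δ42-HA) or zinc fingers (ΔZF-HA), and by the study's genotypes keep an endogenous copy of CG1603. The anti-Mzfp1 lists used the rat antibodies and were taken to share the control library of the y1w1118 adult list, whereas the embryo lists had controls of their own. In the wt-HA anti-Mzfp1 list, where 80.7% of all y1w1118 adult regions and 84.3% of all embryo sites were found, the shares were 71.2% of adult-only and 95.8% of shared adult regions (difference −24.6 percentage points, interval −27.7 to −21.3, but −3.76 with the adult list cut by strength to the length of the embryo set), and 25.8% of embryo-only and 95.7% of shared embryo sites (difference −70.0, interval −76.8 to −61.7, but −15.8 with 50% reciprocal overlap). In ΔM2-HA flies with anti-Mzfp1 (76.1% of all adult regions and 81.1% of all embryo sites) 65.3% of adult-only regions and 22.7% of embryo-only sites were found, and in Δ42-HA flies (93.9% and 86.3%) 90.7% and 22.7%. At least 1 of the 3 transgenic anti-Mzfp1 lists held 93.4% of adult-only regions and 39.4% of embryo-only sites, against 99.2% and 99.1% in the shared sets. In none of the 7 transgenic lists were 5.77% of adult-only regions, 35.6% of embryo-only sites, and 0.311% and 0.296% of the shared sets. Strength again divided the adult list. In the weakest of 4 bins 48.1% of adult-only and 71.7% of shared regions were in the wt-HA anti-Mzfp1 list, and in the strongest bin 100% of both.

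With anti-HA, which is directed at the tag and has another control, the order of the embryo-only sites and the adult-only regions varied between the lists. In wt-HA flies 20.2% of all y1w1118 adult regions and 31.1% of all embryo sites were found, with 11.1% of adult-only regions, 9.09% of embryo-only sites (difference 1.97 percentage points, interval −4.42 to 6.31), and 34.6% and 35.4% of the shared sets. In ΔM2-HA flies (44.9% of all adult regions, 57.1% of all embryo sites) the shares were 34.2% of adult-only regions and 37.9% of embryo-only sites, and 61.8% and 60.8% in the shared sets. In Δ42-HA flies (38.5% and 50.9%) embryo-only sites were found more often than adult-only regions, with 28.1% of adult-only regions and 42.4% of embryo-only sites (adult-only minus embryo-only −14.3 percentage points, interval −23.3 to −5.76). In ΔZF-HA flies (10.2% and 15.6%) the shares were 4.99% of adult-only regions and 11.4% of embryo-only sites (difference −6.37, interval −13.0 to −1.76), and 18.5% and 16.4% in the shared sets. The study reports neither true peaks nor significant signal for ΔZF-HA, so presence in its list is not read as binding. The median fold enrichment of that list was 2.48. The ΔM2-HA, Δ42-HA and ΔZF-HA lists with anti-HA each held 6187 to 6215 regions and covered 3.10 to 4.02 Mb, against 0.430 Mb in wt-HA with anti-HA, and the part of this length in the shares was not tested.

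**Figure D5:**
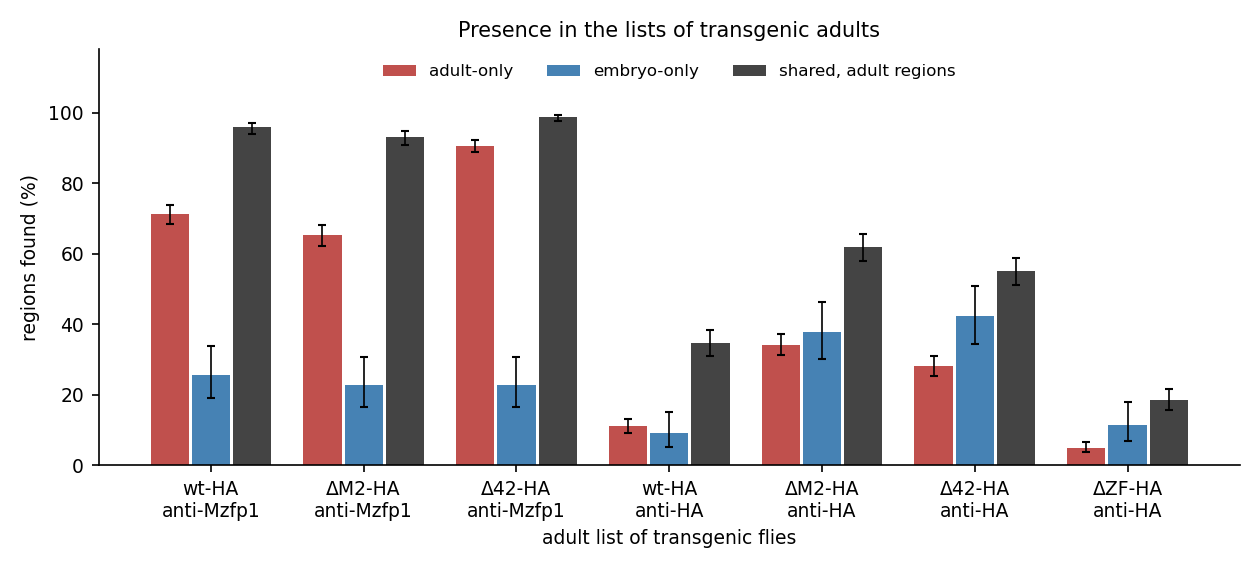
Share of adult-only regions, embryo-only sites and shared adult regions found in each of 7 lists of transgenic adults; bars are Wilson 95% intervals. With anti-Mzfp1 the embryo-only sites lie lowest (22.7 to 25.8%), and with anti-HA they lie at 9.09 to 42.4%.

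In the bithorax complex, the homeotic gene cluster of the posterior body, 3 adult regions and 2 embryo sites were listed. The amplicon that the study uses at the boundary Fub (chr3R:16798624-16798746) lies inside a shared region, with 5.42 in adults and 6.0 in rat embryos. A region in an intron of Abd-B, the homeotic gene of the hindmost segments, was shared as well, with 10.7 in adults, 5.92 in rat embryos and 3.74 in rabbit embryos. The region nearest to lncRNA:bxd was adult-only, with 3.07 in adults. The regions of the complex other than Fub were chosen after their values were seen. At the start of CG1603 itself no region was listed in either stage, and the nearest lay 16819 bp away in adults and 20187 bp away in embryos.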

How the data were processed

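Peak lists of Mzfp1 ChIP-seq were compared. The authors used cutadapt and sickle for trimming, aligned the reads to dm6 (bowtie2 for paired-end adult and bowtie for single-end embryo libraries), and removed duplicates, multiply mapped reads and blacklisted regions. They called embryo peaks with MACS2 at p 1e-05, and adult peaks with MACS2 at p 0.01 followed by the irreproducible discovery rate (IDR) (limit 0.05 for replicates, 0.01 for pseudoreplicates), each against a preimmune control. The deposited lines give the fold enrichment (a ratio), the −log10 of p and q, and a score. From which library or pool the values of an adult line were taken is not stated in the sources used here. Another 64 columns, which describe the IDR inputs, were left out. Reads were not used, so the depth is unknown.

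Regions on the assembled chromosomes (the 4 large autosome arms, 4, X and Y) entered the classes. Embryo lists were merged, and a shared call needed 1 bp. Starts and genes came from Ensembl release 115 (18277 genes on these chromosomes, with 5896 transposable elements left out), and sequences from the RefSeq genome of the same build (BDGP6, dm6). A region was named by the gene with the start nearest to its summit. Intervals are Wilson (shares) and Newcombe (differences) 95% intervals, with no p-value since the adult libraries are in 1 list and the embryo lists differ in antibody, and no correction for the 101 differences computed between classes and antibodies, of which 68 have an interval that leaves out 0. The 15 bp matrices were each trained on 250 regions in 10 rounds, and a match had to reach the 99th percentile of flanks 1000 bp away. Named were the 8 strongest regions of each class, the 4 shared regions with the largest rank gap in each direction, the 5 strongest sites of rabbit antibodies alone, the regions at CG1603 and Fub, and at most 4 genes of each list by fold enrichment, besides sta, RpL7A and those said to be chosen after their values were seen. Of the lists set by name, 30 of 31 replication, 35 of 35 Polycomb and Trithorax group, 22 of 25 architectural, 47 of 49 patterning and 60 of 62 adult tissue genes were matched. Members and lists were chosen with earlier results of these data known. Alternatives changed the overlap rule, the lists' limits, the promoter window and the matrix. Interval and matrix code was tested on simulated data. Python 3.11.15 with numpy 2.4.6, pandas 2.3.3, scipy 1.17.1 and matplotlib 3.10.9 was used.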

Additional observations from a re-analysis of the deposited data

Results flagged for a closer look

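Some regions lay outside the chromosomes compared, on unplaced scaffolds or mitochondrial DNA, and entered no class. There were 4 in the y1w1118 adult list, of which 2 lay on scaffolds assigned to the Y chromosome, 4 in the rat embryo list, of which 1 lay on mitochondrial DNA, and 7 in the rabbit embryo list. They made up 0.240% of the adult, 0.508% of the rat embryo and 5.98% of the rabbit embryo list. Their fold enrichment was 2.07 to 6.62 in adults, 2.41 to 4.8 in rat embryos and 2.85 to 4.74 in rabbit embryos.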

How the results depend on the processing

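Of 149 alternatives computed for 14 results, 123 were counted as the same, and 64 were added after the data were seen. For a difference, the same means that its direction was kept, as was whether its interval included 0. For a share or the ratio it means a value inside the interval of the main result. An adult −log10 p of at least 5 removed no region, since the lowest value was 9.89. Its alternatives repeat the main values and are among the 123, so this count overstates the stability. With 50% reciprocal overlap in place of 1 bp, 20.2% of adult regions and 41.7% of embryo sites were shared, 15 of 35 named regions changed class, the promoter difference of adult-only minus shared regions was −3.23 percentage points and no longer left out 0, the matrix difference was −6.20, and the divergent and heterochromatin differences turned to 11.4 and 3.30. The difference in divergent promoters of embryo-only minus shared sites was −3.14 and included 0. The ratio of adult-only to shared median fold enrichment, 0.509 as reported, was then 0.706. With the adult list cut to the length of the embryo set by strength, 62.0% of adult regions and 65.7% of embryo sites were shared, the heterochromatin difference was −2.99 and included 0, the matrix difference was −10.0 and left out 0, and the ratio was 0.661. Requiring starts on both strands near the summit turned the divergent difference to 5.42. An adult IDR of at most 0.01 gave 41.2% of adult regions. Windows of 250 bp around summits gave 80.7% and an embryo −log10 p of at least 10 gave 86.9% of embryo sites. With the rabbit list alone, 5.58% of adult regions and 87.3% of embryo sites were shared and the ratio was 0.0605. The X difference (−1.01), the GAGAGAG difference (−1.04) and the adult-only matrix difference (17.6) turned round, and the adult-only promoter difference (−2.34) and the embryo-only differences in matrix matches (−9.38) and divergent promoters (−14.6) included 0. The cause of these shifts was not tested. Over all alternatives the X difference ran from −1.01 to 25.3 points, and the embryo-only differences ran from −54.8 to −9.19 in promoters, from −26.3 to −8.40 in matrix matches and from −1.04 to 10.3 in GAGAGAG. The wt-HA anti-Mzfp1 difference ran from −25.1 to −3.76 for adult-only and from −80.5 to −15.8 for embryo-only, and left out 0 in each. Heterochromatin and matrix values with scaffolds kept were not run. No paired analysis was possible because the adult libraries are in 1 list and the 2 embryo lists have 1 library each, from different antibodies. Leaving out a replicate was not possible for adults, whose 2 libraries are in 1 list, and for embryos is the rat or the rabbit list alone. The number of regions and the unknown depth limit the weak end of both lists, where a site of 1 stage can lie under the limit of the other.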

Other observations

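Genes other than protein-coding ones were few in each class. A start of a tRNA gene lay within 200 bp of 5 adult-only regions, 0 embryo-only sites and 0 shared adult regions, and a start of a snoRNA gene within 200 bp of 5 adult-only regions, 0 embryo-only sites and 6 shared adult regions. Starts of ncRNA genes lay near 31 of 1022 adult-only regions, 10 of 132 embryo-only sites and 43 of 644 shared adult regions.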
